A study of Oryctolagus cuniculus with 8 samples.

Results

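This account concerns the nuclear genes of rabbit lungs with congenital diaphragmatic hernia (CDH) that had been exposed to treprostinil, set against control lungs. It describes their distance from control by abundance and direction. The members were all nuclear gene IDs in the comparison of the count table columns X81.CDH1, X81.CDH2 and X81.CDH3 (exposed CDH replicates 1 to 3) with X83.CTRL1 and X83.CTRL2 (control replicates 1 and 2), which are 5 of the series' 8 libraries. Of 23669 IDs in the table, 23632 were nuclear and 37 mitochondrial IDs were set apart. A filter on low counts left 14485 nuclear IDs for testing, and 3832 nuclear IDs had no count in any library.

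In CDH an opening in the diaphragm lets abdominal organs into the chest, so that the developing lung stays small and its arteries become muscular. Prostacyclin is a lipid mediator that relaxes pulmonary arterial smooth muscle through a receptor that raises cyclic AMP, and treprostinil is a stable analogue of it used against pulmonary hypertension. The exposed lungs came from rabbits in which the hernia was made surgically and treprostinil was given on day 24 of a pregnancy that lasts 31 days. The controls carried no hernia label, were not given treprostinil and are labelled placebo in the treatment field. Another 3 libraries came from CDH lungs given placebo, and they entered the model to estimate the spread. Dose, duration, collection day, strain, the surgery of the controls and the source of each library in 1 or several animals are not stated in the labels. Titles start with a code, which is 81 in all exposed CDH libraries and 83 in both controls. Exposure with hernia and title code therefore cannot be told apart, and the spread within either group is spread within its code. Placebo CDH replicates 1 to 3 carry the codes 61, 61 and 56. No label places the libraries in separate animals, so the p-values reflect the variation among these libraries alone, part of which may be technical.

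Total counts were 15280569 to 22060353 in the exposed libraries and 18032706 and 20510373 in the controls, and 17222 to 17879 IDs had at least 1 count in these 5 libraries. The table pairs IDs with no gene names, and 0 IDs could be matched to a symbol, so lung markers, pathways and sequences could not be examined and the genes are described by level, direction and size of change. Levels are given as CPM, counts scaled to a common library total, without correction for gene length.

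Exposed CDH lungs differed from controls in 1126 nuclear IDs, 7.77% of those tested (edgeR quasi-likelihood model, p adjusted by Benjamini-Hochberg and under 0.05). Most of these were lower than control. The lower IDs numbered 774 (5.34% of the nuclear IDs tested) and the higher ones 352 (2.43%), so that 68.7% of the calls were falls. The profile as a whole was centred near 0: the median log2 change of all 14485 nuclear IDs was 0.01, and 49.02% of these changes were below 0. With library totals left unscaled, 58.2% of 1057 calls were lower, and the median log2 change of all nuclear IDs was 0.04. In each of the 1126 called IDs the exposed libraries lay wholly above or wholly below both controls, as they did in 46.3% of all tested nuclear IDs. The count of calls depended on single libraries, most of all on the controls. It was 66 without control replicate 1 (13 higher, 53 lower) and 252 without control replicate 2 (54 higher, 198 lower), in fits that take the spread of the single control left from the other groups. Without exposed replicate 2 it was 571 (154 higher, 417 lower), and without exposed replicate 3 it was 443 (121 higher, 322 lower).

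Calls were more frequent among abundant genes. Nuclear IDs were grouped by their mean over all 8 libraries, of which 6 are CDH and 2 control, so an ID that is low in CDH lungs can fall into a lower class than its control level alone would give. Below 1 CPM, 22 of 1073 IDs were called (2.05%). Between 1 and 10 CPM, 139 of 3658 IDs were called (3.8%). The share was 8.53% between 10 and 100 CPM (638 of 7482 IDs) and 14.4% at 100 CPM or more (327 of 2272 IDs). The median standard error of a log2 change fell over the same classes, from 0.52 below 1 CPM to 0.29, 0.11 and 0.08. Its part in the rising share of calls was not tested. The share of IDs with an unadjusted p under 0.05 also rose, from 13.2% to 18.3%, 26.2% and 38.6%. Without control replicate 1 the shares called in the upper 3 classes were 0.355%, 0.521% and 0.616% in rising order of abundance, and without control replicate 2 they were 0.929%, 1.72% and 3.92%. Without exposed replicate 2 the shares in all 4 classes were 0.815%, 2.02%, 4.197% and 7.70%, and without exposed replicate 3 they were 0.363%, 1.45%, 3.33% and 6.03%. Without exposed replicate 1 and placebo CDH replicate 2 in turn, 0.954% and 1.18% were called below 1 CPM. The order of the classes was the same in all of these fits. With classes formed by the mean of the exposed and the control group mean, an alternative added after seeing the data, the shares were 1.65%, 3.802%, 8.57% and 14.5%.

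**Figure D1:**
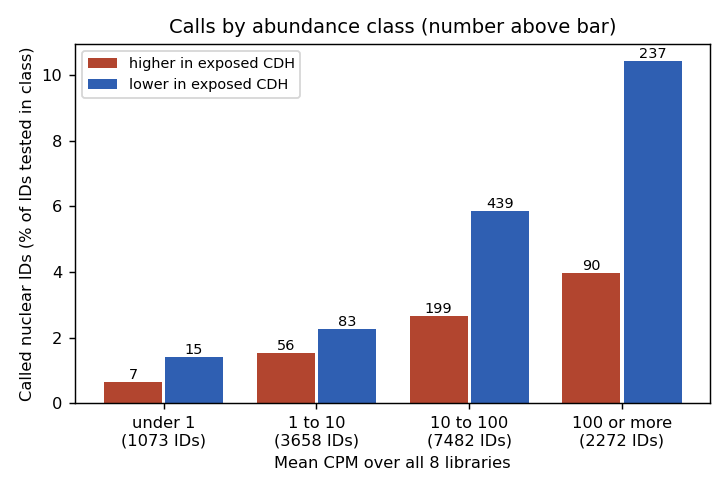
Share of tested nuclear IDs called higher (red) or lower (blue) in exposed CDH than in control lungs, in percent, for 4 classes of mean CPM over all 8 libraries; the number above each bar is the count of called IDs. Lower calls outnumber higher calls in every class, with 15 against 7 below 1 CPM and 237 against 90 at 100 CPM or more.

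Lower calls outnumbered higher calls in every class of abundance. Falls made up 68.2% of the calls below 1 CPM, 59.7% between 1 and 10 CPM, 68.8% between 10 and 100 CPM and 72.5% at 100 CPM or more. At 100 CPM or more, 10.4% of the IDs were called lower and 3.96% were called higher. In that class the median log2 change of all IDs was -0.02, and 55.2% of IDs lay below 0. Between 1 and 10 CPM the same median was 0.05, with 45.5% of IDs below 0. The lower calls were also the more abundant ones, with a median of 58.2 CPM (quartiles 22.4 and 128.98), beside 40.5 CPM (quartiles 14.96 and 101.7) for the higher calls and 23.8 CPM for all tested nuclear IDs.

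The size of the called changes ran the other way and shrank with abundance, in IDs that the test had selected. Over all tested nuclear IDs, called or not, the median absolute log2 change was 0.50 below 1 CPM, 0.31 between 1 and 10 CPM, 0.15 between 10 and 100 CPM and 0.15 at 100 CPM or more. Below 1 CPM the higher calls had a median fold of 8.35 and the lower calls one of 6.28. With the 1 higher ID that had no control count set at its bound from 3 counts over the group, the former was 8.27. Between 1 and 10 CPM the median folds were 2.59 for higher and 2.47 for lower calls, between 10 and 100 CPM they were 1.54 and 1.49, and at 100 CPM or more they were 1.36 and 1.40. The smallest called change was 4.22-fold for a rise and 2.81-fold for a fall below 1 CPM, and 1.17-fold for both at 100 CPM or more.

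**Figure D2:**
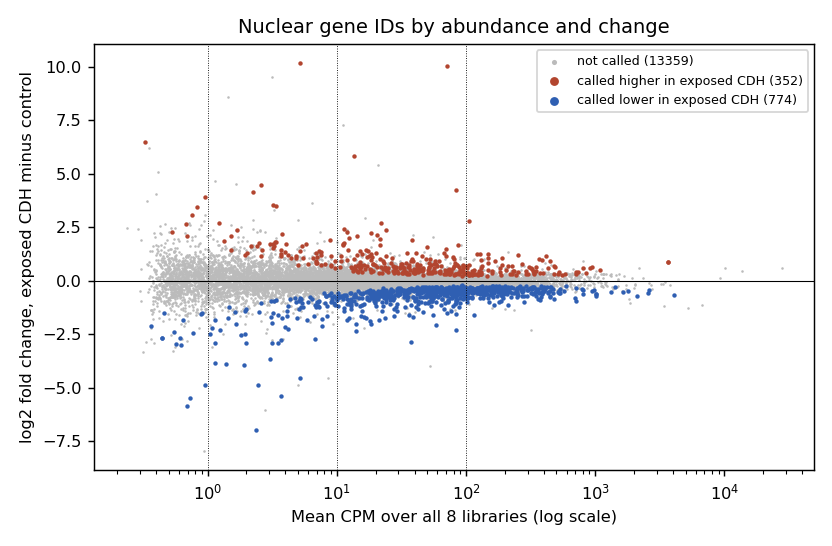
Log2 fold change of exposed CDH against control lungs for each tested nuclear ID (vertical axis) over its mean CPM in all 8 libraries (horizontal axis, log scale); dotted lines mark 1, 10 and 100 CPM. Red (352 IDs) and blue (774 IDs) points passed the test, and they draw closer to 0 as abundance rises.

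Most of the called differences were small. A log2 change under 0.5 was seen in 118 higher and 299 lower calls, and one of 0.5 to 1 in another 128 and 335. A log2 change of 1 to 2 was found in 78 higher and 100 lower IDs, and one of 2 or more in 28 higher and 40 lower IDs. In that last group of sizes, 1 higher and 0 lower IDs stood at 100 CPM or more. When the test asked for a change larger than 1.5-fold (edgeR glmTreat, adjusted p under 0.05), 36 nuclear IDs passed (0.249%), 11 higher and 25 lower. Of the higher ones, 2 lay between 1 and 10 CPM, 8 between 10 and 100 CPM and 1 above. The 25 lower ones comprised 10 between 1 and 10 CPM and 15 between 10 and 100 CPM. This count was 11 and 13 without control replicates 1 and 2, 22 without exposed replicate 3, 64 without placebo CDH replicate 3 and 18 with limma voom.

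The profiles as wholes were also farther apart between the groups than within them. The Bray-Curtis dissimilarity, the share of summed CPM that does not match between 2 libraries, was 0.0976 to 0.112 over the 6 exposed-control pairs of nuclear profiles. It was 0.0475 to 0.0659 among the 3 exposed libraries and 0.0649 between the 2 controls. All 6 pairs across the groups thus exceeded the 4 pairs within them. This is a description, because the 10 ways of choosing 2 of the 5 libraries as controls allow no exact permutation p below 0.1. Placebo CDH libraries, compared with the same controls, stood at 0.0764 to 0.104.

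The gap between the groups differed by class of abundance. At 100 CPM or more the exposed-control pairs stood at 0.1004 to 0.122, with 0.0455 to 0.0661 among exposed libraries and 0.0716 between controls. Pairs with control replicate 1 stood at 0.1004 to 0.1097 and pairs with control replicate 2 at 0.116 to 0.122. Control replicate 2 stood apart in 5 IDs of 1000 CPM or more, in which the controls differed by 3-fold or more. These summed to 10485 CPM in control replicate 1, 56949 CPM in control replicate 2 and 9405, 20448 and 15957 CPM in the exposed libraries. Of the 5, 0 were called by edgeR (adjusted p 0.229 to 0.401, and 0 at an unadjusted p under 0.05). The 5 IDs were chosen for unlike controls, which raises their spread, so the lack of calls says little about them. Without them, an alternative added after seeing the data, the class stood at 0.0894 to 0.105 across the groups, 0.0433 to 0.0593 among exposed libraries and 0.0400 between controls. Over all tested nuclear IDs the corresponding values were 0.0878 to 0.101, 0.0461 to 0.0612 and 0.0433. Between 10 and 100 CPM they stood at 0.0802 to 0.0892, with 0.0483 to 0.0610 and 0.0464 within the groups. Between 1 and 10 CPM they stood at 0.153 to 0.169, with 0.117 to 0.138 and 0.113 within the groups. Below 1 CPM the values were 0.272 to 0.301 across the groups, 0.231 to 0.238 among exposed libraries and 0.235 between controls. Every pair was thus farther apart in both classes below 10 CPM than in those above, within groups as well as across them. Across the groups the values were lowest between 10 and 100 CPM. The pairs across the groups stayed above those within them in each class.

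**Figure D3:**
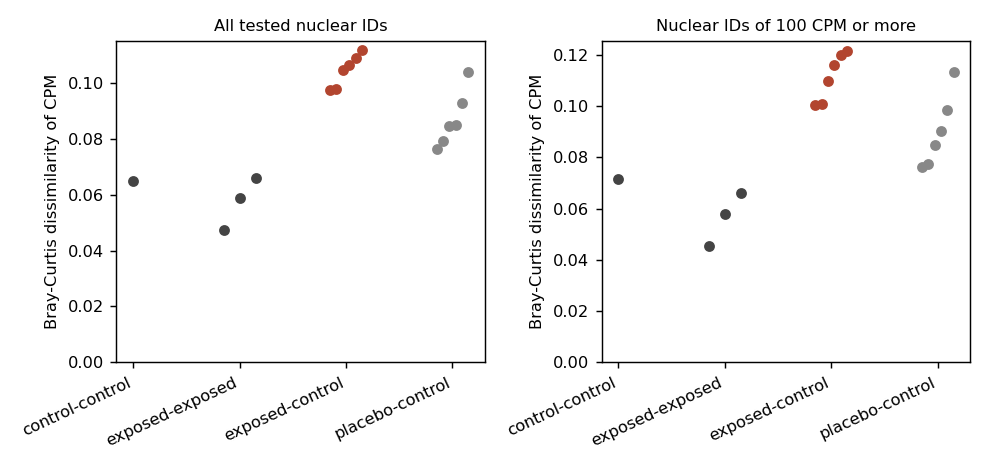
Bray-Curtis dissimilarity of CPM (vertical axis, starting at 0) for each pair of libraries, over all tested nuclear IDs (left) and over those of 100 CPM or more (right); each point is 1 pair. The 6 exposed-control pairs, 0.0976 to 0.112 on the left, lie above the control-control and exposed-exposed pairs in both panels.

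The called IDs together held 15.5% and 14.5% of the nuclear CPM in the controls and 13.1% to 13.2% in the exposed libraries. The 774 lower IDs summed to 123130 and 116130 CPM in control replicates 1 and 2, and to 80830, 83239 and 82042 CPM in exposed replicates 1 to 3. The 352 higher IDs summed to 29930 and 31655 CPM in the controls and to 45988, 48170 and 48280 CPM in the exposed libraries. These sums describe IDs chosen for that difference, so no test was made of them. In placebo CDH libraries, which had no part in the contrast but share its controls and its estimate of spread, the lower IDs summed to 95523, 95976 and 97374 CPM and the higher IDs to 42555, 41338 and 39871 CPM.

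**Figure D4:**
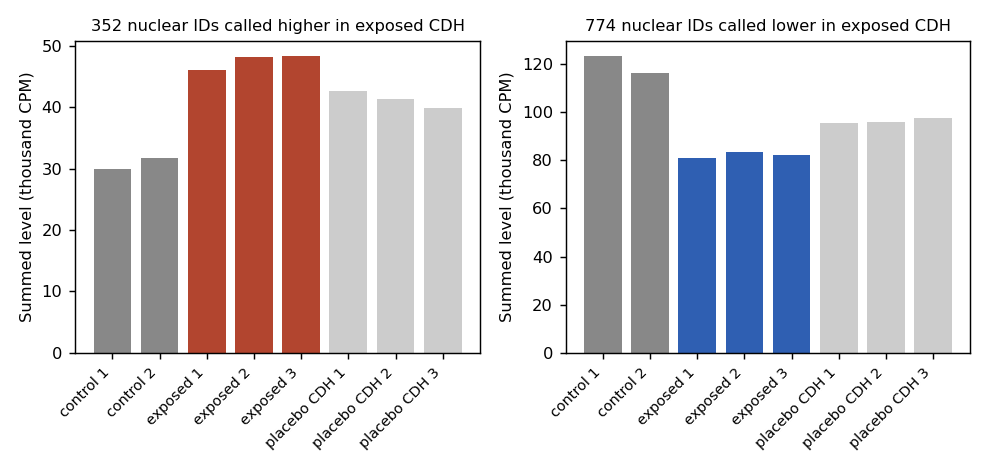
Summed level, on an axis from 0 in units of 1000 CPM, of the nuclear IDs called higher (left, 352 IDs) and lower (right, 774 IDs) in exposed CDH lungs, with 1 bar per library; exposed libraries are coloured, controls dark grey and placebo CDH light grey. The placebo CDH bars lie between the control and the exposed bars in both panels.

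Each comparison's own values over the same IDs can be set side by side, with the caution that both use the 2 controls. The 352 higher IDs had a median log2 difference from control of 0.66 in exposed and 0.40 in placebo CDH lungs. The 774 lower IDs had medians of -0.57 and -0.32. Having been chosen on the exposed libraries, these IDs are biased to larger values there. Over all 14485 nuclear IDs, which were not chosen, the median absolute log2 difference from control was 0.19 in exposed and 0.16 in placebo CDH lungs, and the signed medians were both 0.01.

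Among the 72 nuclear IDs of 1000 CPM or more, 3 were called higher and 11 lower, which is 19.4%, beside 14.4% of all IDs of 100 CPM or more and 7.77% of all tested nuclear IDs. Their log2 changes ran from -1.27 to 0.89 with a median of -0.15, and 58 of the 72 had a change of less than 1.5-fold. The lower end belonged to an uncalled ID among the 5 in which control replicate 2 stood apart, with 2864 and 15778 CPM in the controls and 2475, 5111 and 4039 CPM in the exposed libraries. Without control replicate 2 the 72 changes ran from -0.83 to 0.96, and without control replicate 1 from -2.03 to 0.86. The most abundant called fall stood at 5333 and 4808 CPM in the controls and at 3376, 3157 and 3172 CPM in the exposed libraries. The groups did not overlap, and the log2 change was -0.65 ± 0.10 (standard error, edgeR adjusted p = 0.00946). The call was lost without control replicate 1 (adjusted p = 0.0947) and kept in the other 7 fits that left out 1 library. In placebo CDH lungs this ID stood at 4223 ± 39.4 CPM (SD, n = 3). The most abundant called rise went from 2400 and 2689 CPM in the controls to 3950, 5106 and 4956 CPM in the exposed libraries. Its log2 change was 0.88 ± 0.15 (standard error, edgeR adjusted p = 0.0145), beside 3402 ± 367 CPM (SD, n = 3) in placebo CDH lungs. That call was lost without either control, with adjusted p up to 0.138.

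The largest changes came from IDs that were almost silent in 1 of the groups. Genes were eligible to be named when called, at 5 CPM or more in the higher group and without overlap, which 325 higher and 738 lower IDs met, and the 2 with the largest change per direction are given by ID. ENSOCUG00000021523 had 0 counts in both controls and 167, 210 and 121 counts in exposed replicates 1 to 3. With 3 counts over both controls taken as the floor, the exposed libraries were 106-fold higher. The lower exact two-sided binomial 95% limit for the same counts was 85.6-fold, and both values cover counting error only. The ID was called (edgeR adjusted p = 0.0433), although a change larger than 1.5-fold was not shown (edgeR glmTreat adjusted p = 0.297). This call was fragile, since 8 of 17 other settings kept it, with adjusted p from 0.000107 to 0.194. Placebo CDH libraries were split for this ID, with 2, 84 and 114 counts in replicates 1 to 3.

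ENSOCUG00000024282 had 3 and 0 counts in the controls and 2025, 1959 and 1472 in the exposed libraries. The ratio of summed counts per scaled library total was 1157, with an exact binomial 95% interval of 396 to 5612 that covers counting error only (edgeR adjusted p = 6.17e-06, and at most 0.00203 in 17 other settings). The exposed libraries stood at 91.7 ± 3.50 CPM (SD, n = 3) and the placebo CDH libraries at 99.8 ± 11.2 CPM (SD, n = 3). Those CDH groups differed by -0.12 ± 0.13 on the log2 scale (exposed minus placebo, standard error, edgeR adjusted p = 0.707).

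The largest falls were of the same kind. ENSOCUG00000022894 had 160 and 198 counts in the controls and 3, 0 and 1 in the exposed libraries, a 141-fold lower ratio of summed counts (exact binomial 95% interval 54.5 to 519, edgeR adjusted p = 0.00108). ENSOCUG00000026115 had 248 and 289 counts in the controls and 13, 6 and 1 in the exposed libraries. Its ratio was 42.2-fold lower (interval 27.1 to 69.7, edgeR adjusted p = 0.00308). Both were also nearly without counts in placebo CDH lungs, with 0, 0 and 1 counts of the former and 4, 0 and 0 of the latter. Each stayed called in the 16 other settings that tested it. Presence against absence was rare. Of 19516 nuclear IDs with a count in any of the 5 libraries, 81 had counts in every exposed library and 0 in both controls. Among these, 3 reached 10 counts in each exposed library. ENSOCUG00000021523 was called, and the others were not (edgeR adjusted p = 0.0862 and 0.0526). The reverse, which needs presence in fewer libraries and absence in more, held for 118 nuclear IDs, of which 0 reached 10 counts in both controls.

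Apart from ENSOCUG00000024282, the largest rise between 10 and 100 CPM, the largest changes per direction in the more abundant classes were graded. That ID was almost silent in the controls. Between 10 and 100 CPM the largest fall went from 108 and 78.3 CPM in the controls to 11.6, 13.6 and 13.3 CPM in the exposed libraries. This was a 7.27-fold change (log2 change -2.86, standard error 0.35, edgeR adjusted p = 0.00571), and placebo CDH libraries stood at 13.6, 22.9 and 39.1 CPM. At 100 CPM or more the largest rise went from 20.5 and 33.5 CPM in the controls to 160.4, 164.1 and 246 CPM, a 7.02-fold change (log2 change 2.81, standard error 0.41, edgeR adjusted p = 0.00892). Placebo CDH libraries stood at 42.8, 106.1 and 63.1 CPM for that ID. The largest fall in this class went from 201 and 272 CPM in the controls to 76.8, 93.1 and 68.3 CPM (2.98-fold, edgeR adjusted p = 0.00782), with 62.9, 52.8 and 88.98 CPM in placebo CDH libraries. All exposed libraries lay on 1 side of both controls in 48.0% of tested nuclear IDs between 10 and 100 CPM and 59.3% at 100 CPM or more. This held, as in every called ID, for each of these 3 IDs. Each call was lost in 1 of the 8 fits that left out a library. The fall between 10 and 100 CPM was lost without control replicate 1 (edgeR adjusted p = 0.0570), as was the rise (0.0885), and the fall at 100 CPM or more was lost without control replicate 2 (0.0509).

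Falls were the majority of calls in each of the 17 other settings tried (other scalings, filters and tools, a replicate block and left-out libraries), at 58.2% to 80.3%. The share of calls rose from class to class of abundance in each of these settings except with a filter of 1 CPM in at least 3 libraries, where it was 4.19% below 1 CPM and 3.96% between 1 and 10 CPM.

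**Figure D5:**
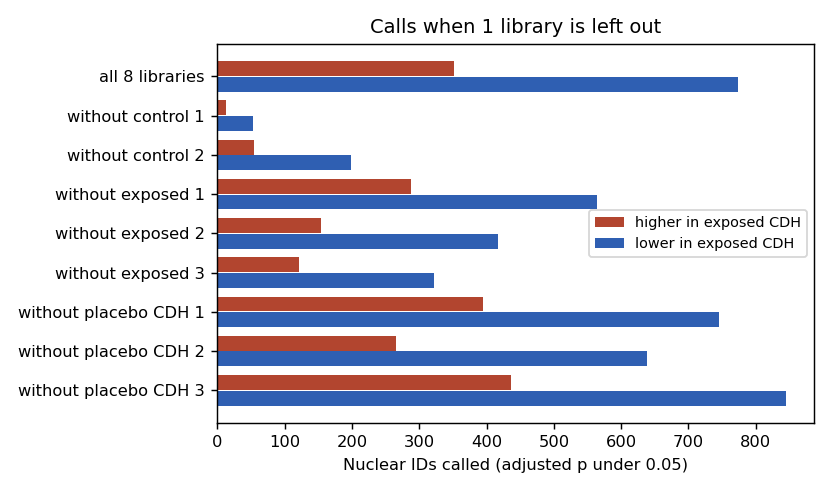
Number of nuclear IDs called higher (red) and lower (blue) in exposed CDH than in control lungs, with all 8 libraries and with 1 library left out at a time. Lower calls are the longer bar in every row, and the total falls from 1126 to 66 without control replicate 1 and to 252 without control replicate 2.

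A core of 51 IDs, 4.53% of the calls, passed the test whichever of the 8 libraries was left out. It comprised 11 higher and 40 lower IDs. No ID below 1 CPM could enter, given the fits that left out a control. The core IDs were 9 of the 3658 tested between 1 and 10 CPM and 31 of 7482 between 10 and 100 CPM. At 100 CPM or more they were 11 of 2272. Their median fold was 2.47, and 33 of them changed 2-fold or more. The following examples from this core were chosen after their values were seen. An abundant ID stood at 877 and 920 CPM in the controls and at 554, 501 and 503 CPM in exposed lungs (log2 change -0.79, standard error 0.07, edgeR adjusted p = 0.00191), with 741 ± 23.9 CPM (SD, n = 3) in placebo CDH. An ID that was higher in exposed lungs went from 68.1 and 67.6 CPM to 163, 160.1 and 158 CPM (log2 change 1.24, standard error 0.11, edgeR adjusted p = 0.00181), with 96.5, 124 and 127 CPM in placebo CDH lungs.

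In 2 further IDs of this core, also chosen after their values were seen, the exposed lungs stood apart from both other groups. The first had 57.8 and 54.7 CPM in the controls, 22.2, 23.6 and 22.96 CPM in exposed and 53.4, 57.8 and 50.4 CPM in placebo CDH lungs. Its log2 change was -1.29 for exposed against control (standard error 0.08, edgeR adjusted p = 0.000382) and -1.23 for exposed against placebo CDH (standard error 0.07, edgeR adjusted p = 0.000103). The second stood at 150.3 and 150.3 CPM in the controls, at 97.8, 101 and 97.8 CPM in exposed and at 186, 178 and 192 CPM in placebo CDH lungs, with a log2 difference of -0.60 between exposed and control (standard error 0.06, edgeR adjusted p = 0.00191). In the second ID the placebo CDH lungs were above control and the exposed lungs below it.

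The mitochondrial IDs that had been set apart encode RNAs of the mitochondrial genome. All 37 summed to 6402 and 6498 CPM in the controls and to 6707, 7175 and 6884 CPM in the exposed libraries, a range of 0.632% to 0.708% of the raw counts. Of the 22 that passed the filter, 1 was called (4.55%), with 11.1 and 10.1 CPM in the controls and 20.3, 17.2 and 16.3 CPM in the exposed libraries (edgeR adjusted p = 0.0388), and 5 stood at 100 CPM or more in the controls. The log2 changes of those 5 ran from -0.45 to 0.31, with a smallest edgeR adjusted p of 0.177. Over all 22, 18 were higher in exposed lungs, and log2 changes reached 3.64. An unadjusted edgeR p under 0.05 was found in 9 of the 22, beside 25.2% of all tested nuclear IDs. Most of those 9 averaged under 1 CPM in the controls. The change of 3.64 rests on few reads: 3 per control library, against 94, 25 and 7 for exposed replicates 1 to 3. Some of the 22 had few or no counts in the 5 compared libraries and passed the filter through the placebo CDH libraries. The share called, the directions and the sizes of change are therefore hard to read. All 37 summed to 20096 to 26295 CPM in the placebo CDH libraries. Removing these IDs before the fit left 1139 nuclear calls, 1121 of them among the 1126.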

How the data were processed

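The authors deposited raw counts per Ensembl gene ID for 8 libraries in a single table, with no normalization. The submitters' processing notes list Trimmomatic 0.36, STAR 2.5.2b, DESeq2 and the build OryCun2.0. Counting program, annotation release, strand setting and the handling of multiply matching reads are not stated in the sources used here, so overlapping, antisense or near-identical genes may share or lose reads. Groups came from sample titles. The counts were fitted with edgeR 4.0.16 (R 4.3.3): filterByExpr on the groups, TMM scaling (factors 0.973 to 1.03), and a quasi-likelihood model of all 8 libraries with 3 groups and 5 residual degrees of freedom, adjusted over 14507 IDs, mitochondrial ones included. Standard errors came from the F statistic. The fit was tested on simulated data. No library pair within the compared groups was identical, and chi-square values per degree of freedom were 14.6 to 55.96. DESeq2 1.42.0, limma 3.58.1 with voom, other scalings and filters, and left-out libraries were tried. Gene lists of lung cell types and pathways could not be matched, since 0 of 23669 IDs had a symbol in the name table used (assembly mOryCun1.1). Members, classes and lists were chosen with earlier results of these data known. Named IDs were called, at 5 CPM or more in the higher group, without overlap, and the 2 of largest change per direction. Other IDs were given by values only: the largest change in a class and direction, the most abundant call per direction, and the examples marked as chosen after their values were seen.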

Additional observations from a re-analysis of the deposited data

How the results depend on the processing

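The counts of nuclear calls stayed within 1.5 times of those reported under RLE scaling, unscaled totals, no low-count filter, the 5 compared libraries alone and removal of the mitochondrial IDs. Of the 1126 calls, 1121, 962, 1043, 939 and 1121 were also called in these settings, in that order. All 1126 calls kept their direction wherever tested, which non-overlap largely fixed. DESeq2 called 1760 IDs, 680 of them higher, with 237 between 1 and 10 CPM and 551 at 100 CPM or more; 1115 were among the 1126. A filter of 1 CPM in 3 libraries left 8 calls below 1 CPM, from fewer IDs tested there. With limma voom, 18 IDs passed the 1.5-fold test. With the last title number as a replicate block, 215 IDs were called (67 higher, 148 lower), with 1, 23, 129 and 62 in rising order of abundance class. In that fit 9 IDs passed the 1.5-fold test. Exposed replicate 3 alone carries the number 3, so its block takes up that library and leaves it no weight in the contrast. Deviations of same-numbered exposed and control libraries correlated at -0.07 and 0.00. Those of same-numbered exposed and placebo CDH libraries correlated at 0.071, 0.072 and 0.032, and those of control and placebo CDH libraries at 0.020, -0.031 and -0.047. The deviations of 2 controls mirror each other by construction, so these values cannot decide whether the number pairs the libraries. With each library left out in turn there were 66 to 1281 calls, 13 to 436 higher and 53 to 845 lower, with 0 to 22, 13 to 157, 39 to 721 and 14 to 381 in rising order of class, and 11 to 64 past 1.5-fold. The 1281 and the 64 came without placebo CDH replicate 3, the only library of title code 56. The mean dissimilarity of exposed and control libraries, 0.105, was 0.10004 to 0.109 in these runs. Without the 5 abundant IDs in which the controls differed, chosen after seeing the data, it was 0.095. Classes formed by the mean of both group means, also added after seeing the data, kept each class's count within 1.5 times. Apart from fewer samples or IDs, the cause was not tested.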
